A study of Mus musculus with 13 samples.

Results

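The 50 genes described here encode the machinery that moves chromosomes in mitosis: the spindle checkpoint, the polo and Aurora kinases, the centromere and kinetochore, the enzymes of anaphase, the proteins of cytokinesis and the condensin complex. They were chosen by gene symbol, and all 50 were found, each in a single row, among the 53465 genes of the expression table. The samples were 3 WT ovaries and 10 MP tumors. A WT ovary was a normal, non-treated ovary of a wild-type mouse. For these ovaries the labels give no age of their own beside a protocol text that all samples share, which speaks of wild-type C57BL/6 females of 8 to 12 weeks. An MP tumor was a non-treated ovarian tumor of genotype Myc;p53-/- EPO-GEMM, made by electroporating plasmids into the ovary of 8 to 12 week old wild-type C57BL/6 females, so that the tumor cells carry a MYC transposon and CRISPR-Cas9 edits in Trp53. Electroporation is not restricted to one ovarian cell type, and the RNA came from whole tumor tissue collected at end point, host cells included. The labels do not say which samples came from separate animals, so p-values measure the spread between these samples. In such bulk samples, fewer cells of a type and less RNA per cell cannot be told apart.

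In a dividing cell the kinetochore, a protein assembly built on the centromere, attaches each chromosome to spindle microtubules. The spindle checkpoint holds back the anaphase-promoting complex (APC/C) and its activator Cdc20 until all chromosomes are attached, after which securin is degraded and separase cuts the cohesin that holds sister chromatids together. Condensin and topoisomerase II compact and untangle the chromosomes beforehand, and RhoA regulators at the spindle midzone then divide the cell. The RNAs of most of these genes peak in G2 and mitosis, and in a cycling adult ovary the main dividing cells are the granulosa cells of growing follicles.

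Expression was given as TPM, which is scaled to gene length and to a fixed total per library, and differences are log2 fold changes of TPM + 1, MP tumor over WT ovary, tested with limma over the 17277 genes that reached 1 TPM in at least 3 libraries. All 50 genes passed this filter. A gene was called at a Benjamini-Hochberg adjusted p under 0.05. The libraries held 31445004 to 64013840 reads in the ovaries and 3892690 to 19906507 in the tumors, and the fewest reads behind any value of the 50 genes was 16 (Cenpk). The library names carry 3 project numbers, the first for the 3 ovaries and MP tumors 1 to 3, another for MP tumors 4 to 6 and the last for MP tumors 7 to 10. All ovaries share the first number, so genotype and project cannot be told apart for tumors 4 to 10. In MP tumor 2 the 10 most abundant genes took 55.1% of all TPM, against 7.92% to 20.6% in the other libraries. RNA of the targeted Trp53 gene was 80.7 to 85.4 TPM in the ovaries and 4.30 to 25.99 TPM in 9 tumors, but 187 TPM in MP tumor 10. A small edit need not lower a gene's RNA, so this level does not show whether an edit is present. RNA of the mouse Myc gene was 126 to 129 TPM in the ovaries and 7.09 to 419 TPM in the tumors.

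Genes of this class often carry a cell cycle genes homology region (CHR, TTTGAA or TTCGAA), the element bound by the MuvB complexes, together with CCAAT boxes, the sites of NF-Y. Promoters of 300 bases, most of them before the transcript start and 50 after it, were taken from RefSeq on GRCm38.p6 and searched on both strands. Of the 50 genes, 43 had such a promoter. TTTGAA or TTCGAA occurred in 30 of the 43 (69.8%), against 21.7% of the 27025 genes with a promoter of that length. CCAAT occurred in 32 (74.4%) against 41.1%, and both together in 27 (62.8%) against 8.61%. The letters GGCGC, part of many E2F sites, occurred in 30 (69.8%) against 39.4%, and the longer form TTCCCGC in 6 (14.0%) against 5.29%. The motifs can share their end bases with each other, and each was counted on its own. Among the 15 genes found higher in the tumors below, 13 had a promoter and 7 of these held TTTGAA. Over the 43 genes TTTGAA occurred in 27 (62.8%), and over all genes with a promoter in 20.2%. The 7 of the 50 genes without such a promoter were Tpx2, Aurkb, Incenp, Spc24, Cdc25c, Smc4 and Cdca2. A match is a run of letters, not a measured site. RefSeq's start can differ from that of the expression table: the table's start lay inside a window for 37 of the 43 genes, and for Pttg1, the single gene found lower in the tumors, it did not, so that window is not shown. The 3 promoters below, each 5′ to 3′ along its gene, are of genes found higher in the tumors, with the table's start inside the window. All 3 hold TTTGAA, which is not so for every higher gene. The windows of Birc5, Cenph, Cenpi, Cks2, Mad2l1 and Nusap1 held neither TTTGAA nor TTCGAA on either strand. Capitals mark CCAAT and TTTGAA, or ATTGG and TTCAAA where the match is on the other strand.
Cenpa, GRCm38.p6 chr5:30666636-30666935, plus strand: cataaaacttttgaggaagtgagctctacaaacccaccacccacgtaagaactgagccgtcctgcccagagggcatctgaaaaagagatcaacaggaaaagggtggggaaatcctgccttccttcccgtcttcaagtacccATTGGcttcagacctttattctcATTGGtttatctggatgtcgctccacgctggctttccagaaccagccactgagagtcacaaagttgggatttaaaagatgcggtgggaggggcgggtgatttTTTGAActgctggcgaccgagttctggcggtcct
Cks1b, GRCm38.p6 chr3:89418242-89418541, minus strand: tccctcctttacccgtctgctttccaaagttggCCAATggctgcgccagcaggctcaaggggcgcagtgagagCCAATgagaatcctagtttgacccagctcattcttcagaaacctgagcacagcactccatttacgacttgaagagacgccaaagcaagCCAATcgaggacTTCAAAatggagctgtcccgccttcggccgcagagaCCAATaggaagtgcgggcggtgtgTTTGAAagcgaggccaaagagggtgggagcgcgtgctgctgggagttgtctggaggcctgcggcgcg
Cdc20, GRCm38.p6 chr4:118437294-118437593, minus strand: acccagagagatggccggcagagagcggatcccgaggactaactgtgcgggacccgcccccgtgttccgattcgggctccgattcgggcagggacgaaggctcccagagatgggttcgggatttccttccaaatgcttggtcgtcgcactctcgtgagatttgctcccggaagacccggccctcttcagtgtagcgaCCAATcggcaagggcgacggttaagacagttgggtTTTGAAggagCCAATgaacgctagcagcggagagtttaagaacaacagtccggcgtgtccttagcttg
The Cenpa promoter held ATTGG from 109 and 86 bases before the start and TTTGAA 16 bases after it. The Cks1b promoter held 4 CCAAT and 2 CHR matches, the nearest beginning 17 bases before the start. In the Cdc20 promoter the TTTGAA, 18 bases before the start, lies between a pair of CCAAT boxes.

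All 50 genes were measurable in normal ovary, with at least 3 TPM in each of the 3 ovaries. Their mean ovary level ran from 5.44 TPM (Cenpk, a subunit of the inner kinetochore) to 109.9 TPM (Cks1b, a small subunit of cyclin-dependent kinases). TPM is scaled by the length of the merged exons of each gene, so levels can be set beside each other between genes on that scale. The median of the 50 was 23.7 TPM, beside 15.7 TPM for all genes tested. The 5 highest were Cks1b with 109.6, 138 and 81.8 TPM in ovaries 1, 2 and 3, the condensin ATPase Smc4 with 91.6, 113 and 61.2, topoisomerase Top2a with 70.2, 108 and 46.9, securin (Pttg1) with 71.8, 67.8 and 84.7 and Cdc20 with 66.7, 91.2 and 50.1. Mki67, which encodes the proliferation marker Ki-67, was at 51.1, 73.5 and 33.3 TPM. The levels of one ovary rise and fall together, so neighbors in this order were compared within each ovary. Cks1b exceeded Smc4 and Smc4 exceeded Top2a in all 3 ovaries. The order of Top2a and Pttg1, and that of Pttg1 and Cdc20, changed from ovary to ovary. The mean was 88.6 ± 26.1 TPM for Smc4, 74.9 ± 30.7 for Top2a, 74.7 ± 8.81 for Pttg1 and 69.3 ± 20.7 for Cdc20 (SD, n = 3).

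The 3 ovaries were ranked alike by nearly every gene. Ovary 2 was highest, ovary 1 next and ovary 3 lowest in 47 of the 50 genes, an order that 25.9% of all tested genes showed. The median ratio of ovary 2 to ovary 3 was 1.87 over the 50 genes and 1.05 over all tested genes. The exceptions were Cenpp, which was slightly higher in ovary 1 (8.98 TPM) than in ovary 2 (8.64 TPM), and Pttg1 and Cdc25b, which were highest in ovary 3. The between-ovary SD of log2(TPM + 1) had a median of 0.44 over the 50 genes, against 0.16 over all tested genes. Some granulosa cell markers had this order too: Fshr, the FSH receptor, was at 31.0, 75.5 and 23.6 TPM in ovaries 1, 2 and 3, and Amh was at 340, 441 and 228 TPM. Of 6 granulosa markers 3 had the order of ovaries 2, 1 and 3, as did 8 of 10 oocyte markers, 2 of 6 epithelial markers, 2 of 5 theca and luteal markers and none of 4 stromal, 3 endothelial and 6 immune markers. The theca and luteal markers were Lhcgr, the LH receptor, at 689, 865 and 244 TPM, and Cyp17a1, the androgen-forming hydroxylase, at 200.4, 286 and 12.6 TPM. The summed stromal markers were highest in ovary 3. The summed granulosa markers were 3901, 6277 and 3353 TPM. The part of any of these cells in the mitotic RNA of the ovary was not tested.

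**Figure D1:**
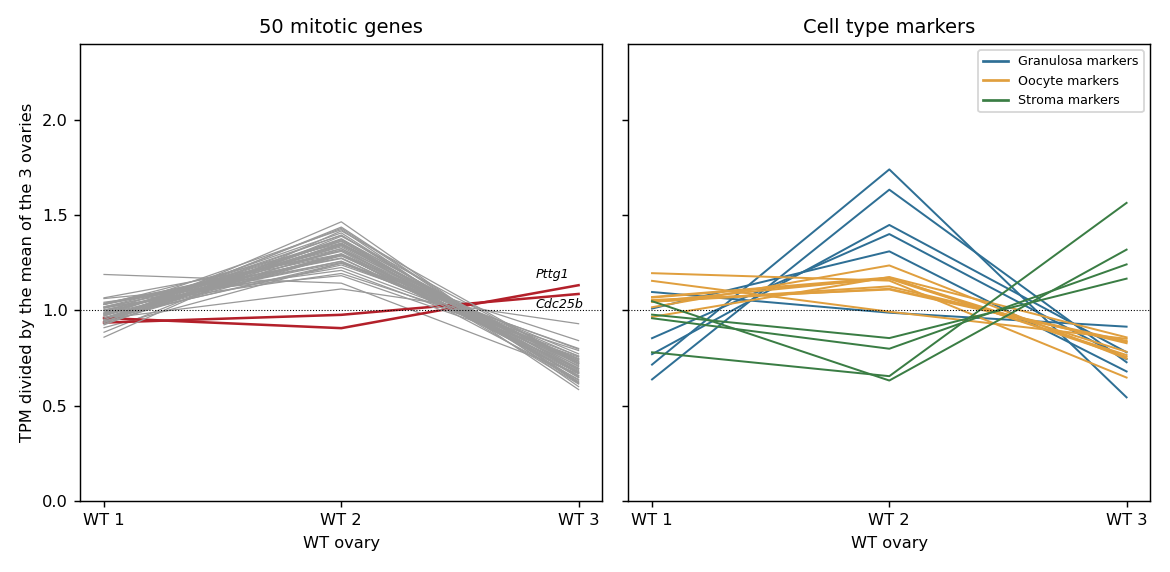
The 50 mitotic genes (left) and markers of granulosa cells, oocytes and stroma (right) in WT ovaries 1, 2 and 3, each as TPM divided by the gene's mean over the 3 ovaries, with a line per gene and a dotted line at the mean. For 47 of the 50 mitotic genes ovary 2 is highest and ovary 3 lowest, Pttg1 and Cdc25b (red) are highest in ovary 3, and stromal markers are highest in ovary 3.

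The comparison of MP tumors with WT ovaries set mitotic RNA in the tumors beside that of an organ which itself contains dividing cells. Of the 50 genes 15 were higher in the tumors and 1, Pttg1, was lower, with log2 fold changes from -2.01 to 2.49. Over all tested genes 2.51% were higher and 14.3% lower. A positive fold change was seen in 49 of the 50 genes, against 30.1% of all genes, and the median was 1.00 against -0.58. The 15 came from 8 of the 9 role groups, and none of the 8 condensin and chromosome structure genes passed the test in either direction, with 0 also at an unadjusted p under 0.05. Of the 50 genes 24 were higher and 1 lower at an unadjusted p under 0.05, beside 972 and 4735 of all 17277 genes. In 8 genes every tumor exceeded every ovary, which 3.02% of all genes showed, and in Pttg1 every tumor was below every ovary, as in 16.4% of all genes.

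The scale on which libraries are compared bore on this count. The median of all tested genes moved from -0.58 on the TPM scale to -0.02 after median-of-ratios scaling, under which 41 of the 50 genes were higher (7.39% of all genes) and Pttg1 was still lower. Quantile normalization called 40 higher (11% of all genes), and limma-voom on the whole reads recovered from the TPM called 38 (10.9%). With the trend over gene length removed it was 43 (11.2%). All 16 calls were kept under each of these. The ovaries bore on it too: without ovary 1 or without ovary 3 only 2 genes were called higher (0.479% and 0.387% of all genes), and without ovary 2 it was 6 (0.638%). Without MP tumors 1 to 3 the count was 24 (4.82%), and without MP tumor 10, the one with high Trp53 RNA, it was 13 (2.78%). Cenpa and Cks1b were the genes called in each of the 26 alternatives examined.

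**Figure D2:**
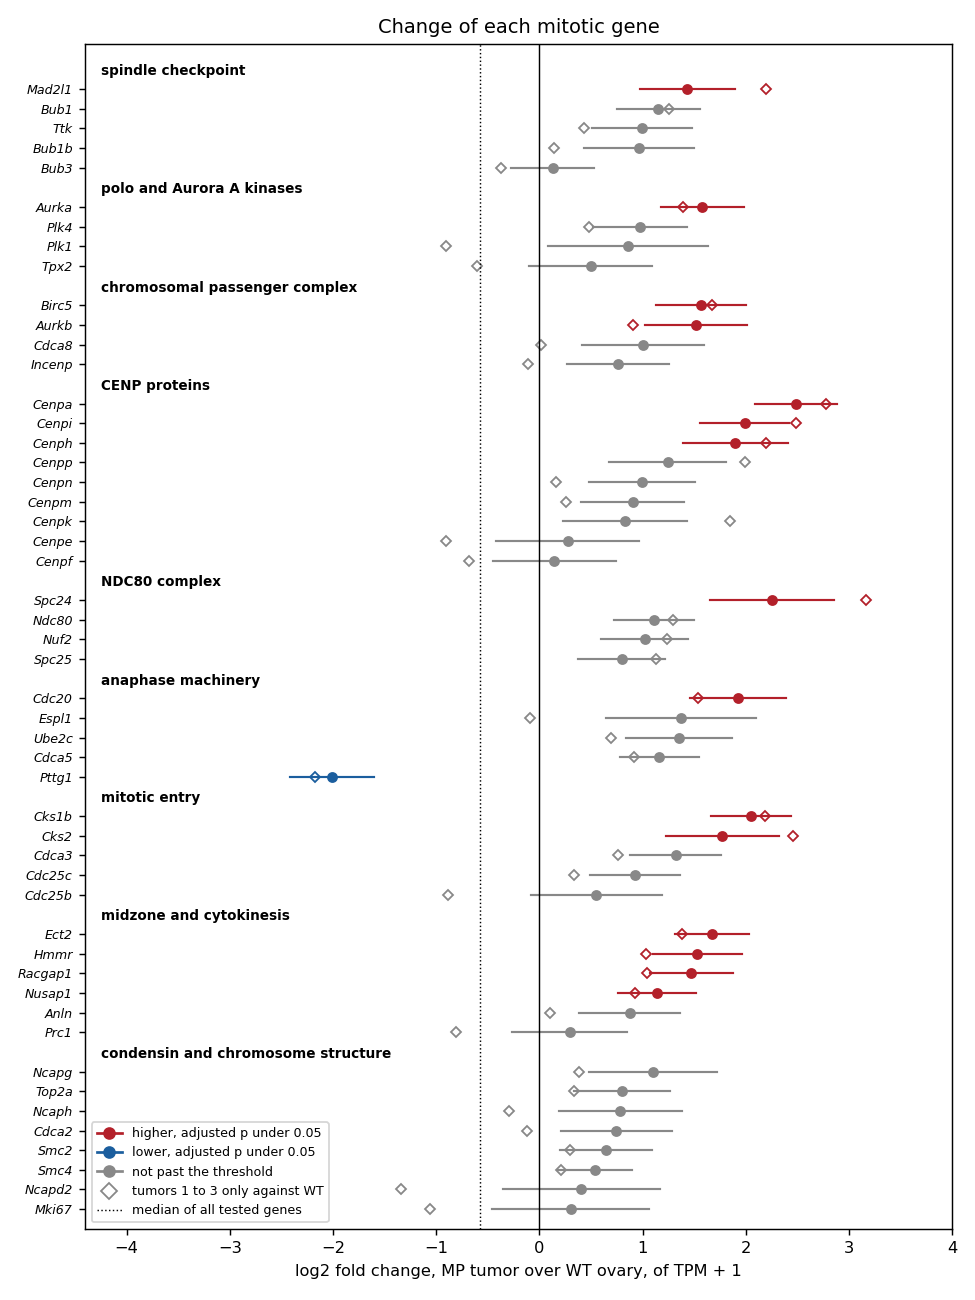
Log2 fold change of TPM + 1, MP tumor over WT ovary, for the 50 genes grouped by role. Filled circles with bars give the estimate from all 10 tumors ± SE, open diamonds the estimate from tumors 1 to 3 alone, both in the color of the call from all tumors, and the dotted line the median of all tested genes. Pttg1 is the single gene left of zero in the estimate from all tumors, and the condensin group holds no called gene.

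Among the spindle checkpoint genes 1 of 5 was higher. Mad2l1, which encodes the checkpoint protein MAD2, was at 17.3, 21.3 and 11.7 TPM in the ovaries and ran from 19.5 to 107 TPM, median 45.3, in the tumors (log2 fold change 1.43, SE 0.46, adjusted p = 0.0444). Only MP tumor 4, at 19.5 TPM, lay within the range of the ovaries. The call was lost in 10 of 26 alternatives, with an adjusted p of up to 0.229. The other 4 checkpoint genes, the kinases Bub1 and Ttk, Bub1b and Bub3, had fold changes from 0.13 to 1.15 and did not pass. Among the polo and Aurora A kinases with their cofactor Tpx2, 1 of 4 was higher. Aurka, the kinase of centrosome maturation, was at 31.4, 40.8 and 20.2 TPM in the ovaries and 35.3 to 143 TPM, median 95.05, in the tumors (log2 fold change 1.58, SE 0.40, adjusted p = 0.0151). MP tumor 2 was the lowest and the only tumor below ovary 2. Plk1, the polo kinase of mitotic entry, spanned 6.71 to 162 TPM in the tumors, median 116, against 36.3, 51.4 and 26.4 in the ovaries, and did not pass (log2 fold change 0.85, SE 0.77, adjusted p = 0.445). It was called higher in 4 of 26 alternatives. It turned negative in 3, which share a single estimate, the -0.91 of the first project number. Its tumors fell on both sides of the ovaries, 6 above all of them and 2 below.

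The chromosomal passenger complex, which corrects faulty attachments and later acts in cytokinesis, had 2 of 4 genes higher. Birc5, which encodes survivin, was at 29.1, 36.9 and 18.5 TPM in the ovaries and 40.2 to 173 TPM, median 83.7, in the tumors, so that no tumor overlapped the ovaries (log2 fold change 1.56, SE 0.44, adjusted p = 0.0245). Aurkb, the kinase of the complex, was at 29.3, 41.7 and 20.7 TPM against 33.5 to 219, median 88.8 (log2 fold change 1.51, SE 0.49, adjusted p = 0.0481), with MP tumor 2 inside the ovary range and MP tumor 6 highest. The call of Aurkb stood close to the threshold and was lost in 16 of the 26 alternatives. Incenp and Cdca8, the scaffold and the borealin subunit, had fold changes of 0.76 and 1.01 and did not pass.

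The largest fold change of the 50 was that of Cenpa, the histone H3 variant that marks the centromere (chr5:30666777-30674830 in the deposited coordinates). It was at 18.7, 22.02 and 14.6 TPM in the 3 ovaries and 54.5 to 198 TPM, median 112, in the tumors, a mean of 18.4 ± 3.74 (SD, n = 3) against 116 ± 47.4 (SD, n = 10). Every tumor exceeded every ovary (log2 fold change 2.49, SE 0.40, adjusted p = 5.24e-04), and over the alternatives its adjusted p ran from 0.000105 to 0.0134. Of the 9 CENP genes 2 more were higher, both of the constitutive centromere network. Cenpi was at 6.79, 8.22 and 5.10 TPM in the ovaries and 15.0 to 57.0 TPM, median 31.1, in the tumors, again without overlap (log2 fold change 1.99, SE 0.43, adjusted p = 0.00536). For Cenph, 10.9, 14.1 and 9.12 TPM in the ovaries faced 13.2 to 84.2 TPM, median 54.4, in the tumors, where MP tumor 4 alone lay below ovary 2 (log2 fold change 1.90, SE 0.51, adjusted p = 0.0194). Cenph overlaps the annotated gene Gm16335 on the opposite strand, and whether reads were counted by strand is not given in the sources used here. The motor Cenpe and the large coiled-coil protein Cenpf were the lowest of the group, with fold changes of 0.27 and 0.14, neither past the threshold. Cenpe was at 14.2, 20.9 and 10.4 TPM in the ovaries and 3.996 to 48.8 TPM, median 21.5, in the tumors, which lay both above and below the ovaries. It was called higher in 1 of 26 alternatives and turned negative in 3, which share the estimate of the first project number.

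The NDC80 complex is the microtubule-binding part of the kinetochore. Of its 4 subunits only Spc24 passed, with 14.9, 23.5 and 12.2 TPM in the ovaries and 26.7 to 236 TPM, median 78.4, in the tumors (log2 fold change 2.25, SE 0.60, adjusted p = 0.0188). No tumor overlapped the ovaries, but the tumors themselves differed by 8.85-fold, with MP tumors 1 and 3 highest. The other 3 subunits, Ndc80, Nuf2 and Spc25, had fold changes from 0.80 to 1.11. The 4 proteins form 1 complex, and their RNAs in the tumors had means of 104 TPM for Spc24, 57.6 for Ndc80, 45.3 for Spc25 and 22.9 for Nuf2.

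Of the 5 anaphase genes 1 was higher, Cdc20, and 1 lower, Pttg1. Cdc20, the activator of the APC/C, was at 66.7, 91.2 and 50.1 TPM in the ovaries and 79.7 to 457 TPM, median 309, in the tumors (log2 fold change 1.92, SE 0.46, adjusted p = 0.0110). MP tumor 2 was the lowest and lay between ovaries 1 and 2, while the other 9 exceeded every ovary. Its locus overlaps Elovl1 on the other strand. Pttg1 encodes securin, the inhibitor of separase that the APC/C destroys with Cdc20. It was at 71.8, 67.8 and 84.7 TPM in ovaries 1, 2 and 3. In MP tumors 1 to 10 it was at 30.7, 9.54, 13.004, 18.04, 36.0, 16.0, 18.4, 25.9, 12.98 and 11.9 TPM. The highest tumor was thus well below the lowest ovary, and the group means were 74.7 ± 8.81 TPM in the ovaries (SD, n = 3) and 19.2 ± 8.78 TPM in the tumors (SD, n = 10). The difference passed the test (log2 fold change -2.01, SE 0.41, adjusted p = 0.00342). The lower call was lost in 1 alternative, without ovary 3, at an adjusted p of 0.05003. Pttg1 was also one of the genes that did not follow the ovary order above, being highest where the other genes were lowest. Its target Espl1, which encodes separase, was at 11.3, 14.1 and 7.29 TPM in the ovaries and 5.67 to 69.6 TPM, median 43.3, in the tumors, and did not pass (log2 fold change 1.37, SE 0.73, adjusted p = 0.197). It was called higher in 6 of 26 alternatives and turned to -0.10 within the first project number. The ubiquitin-conjugating enzyme Ube2c and sororin (Cdca5) had fold changes of 1.35 and 1.16, with adjusted p of 0.0812 and 0.0501.

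**Figure D3:**
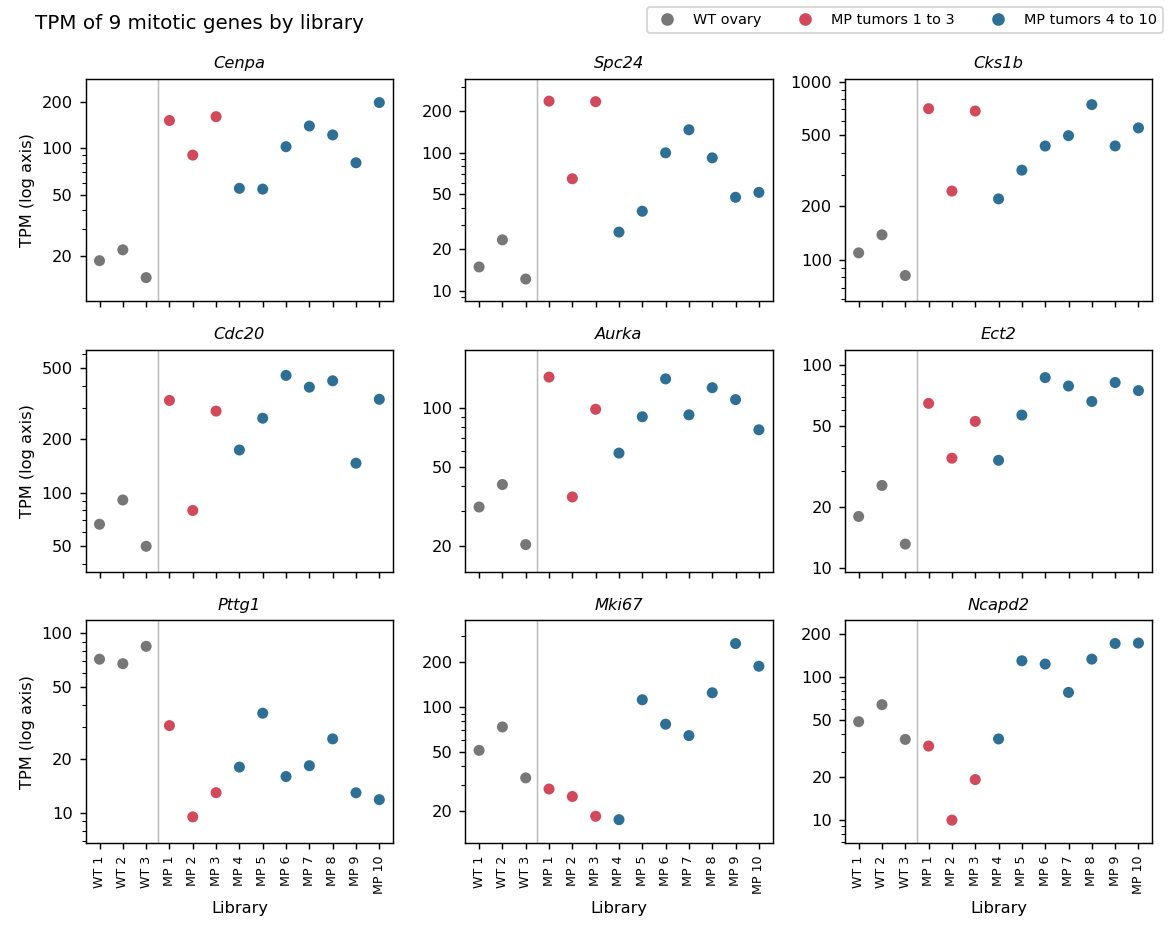
TPM of 9 of the genes, on a log axis, in each of the 3 WT ovaries (grey), MP tumors 1 to 3 (red) and MP tumors 4 to 10 (blue). All tumors lie above all ovaries for Cenpa, Spc24, Cks1b and Ect2 and below them for Pttg1, whereas for Mki67 and Ncapd2 tumors 1 to 3 lie below every ovary.

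Of the 5 genes of mitotic entry 2 were higher, both small Cks proteins that bind cyclin-dependent kinases. Cks1b was at 109.6, 138 and 81.8 TPM in the ovaries and 220.3 to 745 TPM, median 468, in the tumors, with no overlap (log2 fold change 2.05, SE 0.39, adjusted p = 0.00201). It was the most abundant of the 50 genes in both tissues, and has an annotated near-copy, Cks1brt, with which reads could be shared. Cks2 was at 52.8, 61.3 and 37.81 TPM against 37.2 to 369.5, median 201 (log2 fold change 1.77, SE 0.55, adjusted p = 0.0386), where MP tumor 4 alone lay just below the lowest ovary and the other 9 exceeded all ovaries. The Cks2 call was lost in 10 of 26 alternatives, with an adjusted p of up to 0.191, among them leaving out MP tumors 1 to 3. The phosphatases Cdc25b and Cdc25c, which activate Cdk1, had fold changes of 0.55 and 0.92 and did not pass, and nor did Cdca3, at 1.32 with an adjusted p of 0.0519.

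Of the 6 genes of midzone and cytokinesis 4 were called higher with all tumors, and 2 within the first project number. Ect2, the exchange factor that activates RhoA at the midzone, was at 18.02, 25.6 and 13.2 TPM in the ovaries and 34.0 to 86.8 TPM, median 65.5, in the tumors (log2 fold change 1.67, SE 0.36, adjusted p = 0.00536). It had the smallest spread between tumors of all 50 genes, 2.55-fold from lowest to highest, and no tumor overlapped the ovaries. Racgap1, which recruits Ect2 to the midzone, was at 26.7, 35.7 and 20.2 TPM against 35.8 to 122, median 88.4 (log2 fold change 1.47, SE 0.40, adjusted p = 0.0210), also without overlap. Hmmr, a spindle and hyaluronan-binding protein, was at 13.9, 20.7 and 10.6 TPM against 22.1 to 68.5, median 51.3 (log2 fold change 1.53, SE 0.43, adjusted p = 0.0247). All tumors exceeded all ovaries for this gene too, the lowest by a small margin. Nusap1, a microtubule-bundling protein, was at 26.8, 38.8 and 20.8 TPM against 31.5 to 98.9, median 63.2, and stood at the threshold (log2 fold change 1.14, SE 0.38, adjusted p = 0.04998). Its call was lost in 17 of the 26 alternatives. The midzone bundler Prc1 and anillin (Anln) had fold changes of 0.29 and 0.87 and did not pass.

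Condensin subunits, topoisomerase and Ki-67 were the group with no call on the TPM scale with all tumors. Ncapg and Top2a were each called higher in 5 of 26 alternatives, Smc4 in 4, Ncapd2 in 2 and Mki67 in 1. Ncapd2 and Mki67 were lower within the first project number, as given below. With all tumors the fold changes were positive throughout, from 0.30 to 1.099 with a median of 0.69. Ncapd2, a condensin I subunit, was at 48.5, 63.8 and 36.5 TPM in the ovaries and 9.94 to 172 TPM, median 100.2, in the tumors (log2 fold change 0.40, SE 0.76, adjusted p = 0.724). Ncapg, another condensin I subunit, was at 11.7, 16.9 and 7.42 TPM against 10.9 to 142, median 23.04 (log2 fold change 1.099, SE 0.62, adjusted p = 0.223), and its maximum came from MP tumor 10 alone. Smc4 was at 68.9 to 221 TPM in the tumors, median 123 (log2 fold change 0.54, SE 0.36, adjusted p = 0.294), and no tumor lay below the lowest ovary. Top2a ran from 49.8 to 247 TPM in the tumors, median 144 (log2 fold change 0.80, SE 0.46, adjusted p = 0.236), and again no tumor lay below the lowest ovary. Mki67 was at 28.0, 25.0, 18.4, 17.4, 112, 76.7, 64.2, 125, 268 and 189 TPM in MP tumors 1 to 10. Tumors 1 to 4 were thus below every ovary, and tumors 5, 6, 8, 9 and 10 above every ovary (log2 fold change 0.30, SE 0.76, adjusted p = 0.796).

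A further 89 mitotic genes, listed by function outside the 50, were read in the same fit. Of these 13 were higher and 0 lower by limma, beside 2.51% and 14.3% of all genes, with 2 lower at an unadjusted p under 0.05. By voom 33 were higher and 0 lower, beside 1876 and 4045 of all 17277 genes. Each of the limma calls named here was lost without ovary 3, and the number higher was 1 without ovary 1 and 5 without ovary 2. Their median log2 fold change was 0.33. Within the first project number, taken up below, 17 were higher and 28 lower with a median of -0.26, beside 6.84% and 62.4% of all genes. With all tumors none of 17 APC/C subunits was called by limma (0 at an unadjusted p under 0.05 in either direction; median -0.22), and 1 of 14 genes of cohesin and its protection was higher. Within the first project number 8 of the 17 APC/C subunits were lower, and of the 14 cohesin genes 9 were lower and 2 higher. The cohesin gene called with all tumors was shugoshin (Sgo1), which guards centromeric cohesin, at 12.5 ± 3.93 TPM (SD, n = 3) in the ovaries and 51.0 ± 17.8 TPM (SD, n = 10) in the tumors (log2 fold change 1.90, SE 0.40, adjusted p = 0.00492). Again with all tumors, other kinetochore and centromere genes had 6 of 27 higher and spindle and cytokinesis genes 3 of 16. Pimreg, a mitotic regulator, rose with a log2 fold change of 1.79 (adjusted p = 0.00635). Trip13, the ATPase that remodels MAD2, rose with a log2 fold change of 2.27 (adjusted p = 0.00703).

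The tumors differed among themselves. The mean of log2(TPM + 1) over the 50 genes was 4.65, 5.03 and 4.22 in ovaries 1, 2 and 3, and 5.84, 4.61, 5.32, 4.70, 5.70, 6.15, 5.91, 6.22, 6.11 and 6.19 in MP tumors 1 to 10. MP tumors 2 and 4 thus lay within the range of the ovaries and the other 8 above it. The lowest tumor was MP tumor 2 for 24 genes and MP tumor 4 for 20. The highest was MP tumor 10 for 13 genes, MP tumor 9 for 12 and MP tumor 1 for 9. In MP tumor 2, 16 genes were above every ovary and 19 below every ovary, in the library with 55.1% of its TPM in 10 genes. After median-of-ratios scaling the same mean was 6.21 in MP tumor 2 against 3.75 to 4.51 in the ovaries, and MP tumor 4 was the lowest tumor at 4.81. The position of MP tumors 2 and 4 among the ovaries therefore held on the TPM scale and not after this scaling, where both lay above. MP tumor 4 also held the most granulosa marker RNA of the tumors, a sum of 1507 TPM, where the other tumors had 4.54 to 940.04 TPM. Inha, the inhibin alpha subunit, gave 1429.5 TPM of that sum, while Fshr, Inhba and Cyp19a1 were at 0 and Amh at 1.03 TPM. Foxl2, the granulosa transcription factor, was at 76.0 TPM there, the highest of the tumors, which otherwise ran from 0.553 to 49.5 TPM. Amh and Fshr were highest in MP tumor 5, at 28.9 and 1.52 TPM. The epithelial markers also summed highest in MP tumor 4, to 1152 TPM, where the other tumors had 5.67 to 464 TPM. The part of these cells in its mitotic RNA was not tested. Over all 10 tumors the oocyte markers summed to 1.73 to 32.7 TPM against 336 to 490 TPM in the ovaries, with Figla at 0 in every tumor, and the granulosa markers to 4.54 to 1507 TPM against 3353 to 6277 TPM, with Cyp19a1 at 0 in 9 tumors. All 10 oocyte and all 6 granulosa markers were lower in every tumor than in every ovary. So were 4 of 5 theca and luteal markers, with sums of 7.44 to 824 TPM in the tumors against 25024 to 28130 TPM in the ovaries, and 2 of 3 endothelial markers, with 3.68 to 169.8 TPM against 206 to 214 TPM. For stromal, immune and epithelial markers it was 1 of 4, 1 of 6 and 3 of 6, and the ranges of their sums overlapped. The part of these cells in the change of the mitotic genes was not tested.

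**Figure D4:**
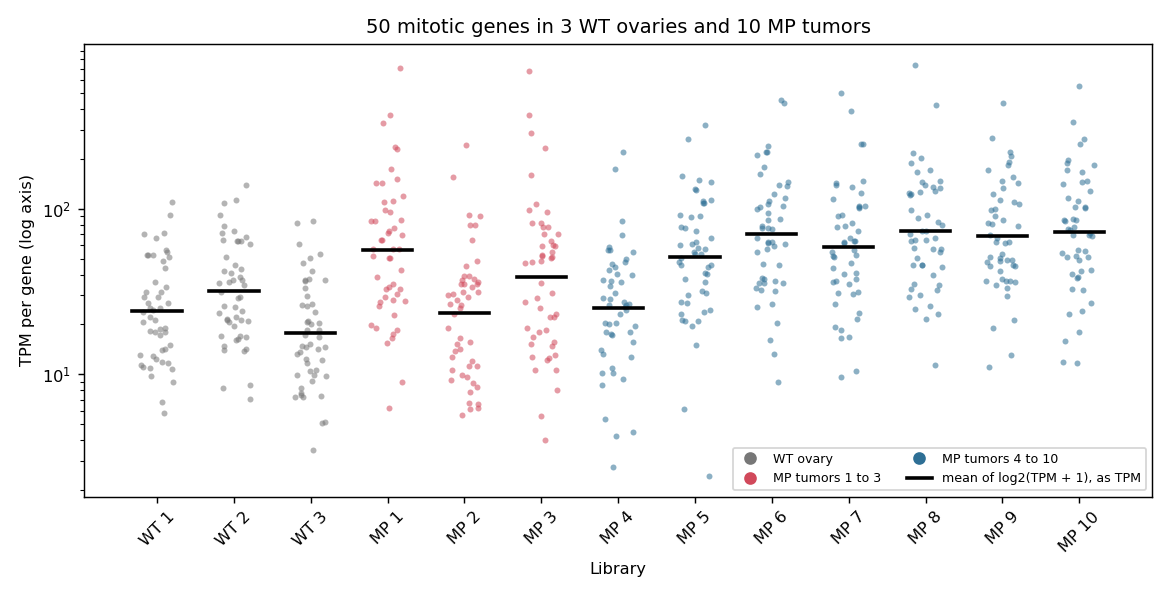
TPM of the 50 genes in each library on a log axis, with a point per gene and a black bar at the mean of log2(TPM + 1) shown as TPM. Bars of MP tumors 2 and 4 lie among those of the 3 WT ovaries and the bars of the other 8 tumors lie above them.

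Between tumors the SD of log2(TPM + 1) had a median of 0.80 over the 50 genes, against 0.86 over all tested genes, and ran from 0.47 (Ect2) to 1.44 (Plk1). The ratio of highest to lowest tumor had a median of 6.02. In the 5 genes of largest SD it was 24.2 for Plk1, 17.3 for Ncapd2, 15.4 for Mki67, 12.3 for Espl1 and 12.2 for Cenpe. Ncapg and Cdc25b, with a smaller SD, had ratios of 12.95 and 12.6. MP tumor 2 set several of these. Without it the median was 4.38, and the ratio was 6.99 for Plk1, 9.02 for Ncapd2 and 6.83 for Espl1, while those of Mki67 and Cenpe stayed as they were. Plk1 was at 42.7, 6.71 and 23.2 TPM in MP tumors 1 to 3, 47.4 in tumor 4 and 104 to 162 in tumors 5 to 10. Ncapd2 and Espl1 were likewise lowest in MP tumor 2, and Ncapd2 was below every ovary in tumors 1 to 3.

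Since MP tumors 1 to 3 share the project number of the ovaries, the comparison was repeated within that number. There 16 of the 50 genes were higher and 3 lower, where 6.84% of the 15239 genes tested were higher and 62.4% lower. The median was 0.46 beside -1.44 over all genes, and 36 of the 50 were positive, against 18.97% of all genes. Of the 15 genes called with all tumors 11 were called here. Aurka, Aurkb, Hmmr and Nusap1 were not, while Bub1, Cenpk, Cenpp, Ndc80 and Nuf2 passed here and had not with all tumors. The difference between these fits, which share the ovaries, was not tested, and for some of the genes it was small: Aurka had a log2 fold change of 1.39 here (adjusted p = 0.0502) and 1.58 with all tumors, and Bub1 had 1.252 here and 1.15 with all tumors (adjusted p = 0.0605). The highest values were those of Spc24, with a log2 fold change of 3.16 (adjusted p = 0.00113), Cenpa with 2.77 (adjusted p = 2.22e-04), Cenpi with 2.49 (adjusted p = 4.47e-04) and Cks2 with 2.45. The kinetochore proteins Cenpe and Cenpf stood at -0.90 and -0.68 and did not pass. The 3 lower genes were Pttg1 (log2 fold change -2.17, SE 0.44, adjusted p = 0.00256), Ncapd2 (log2 fold change -1.34, SE 0.46, adjusted p = 0.0302) and Mki67 (log2 fold change -1.06, SE 0.38, adjusted p = 0.0358). These calls depended on the scale and the libraries. Median-of-ratios scaling called 42 of the 50 higher and 0 lower, beside 28% and 37% of all genes, so that all 3 lower calls were lost, and quantile normalization and voom lost those of Ncapd2 and Mki67 and kept that of Pttg1. The calls of Ncapd2 and Mki67 were also lost with no filter on low values, without ovary 1, without ovary 2 and without MP tumor 3. The replicate block also lost the call of Mki67. With the gene length trend removed Ncapd2 lost its call and Mki67 turned. With the coding length trend removed both turned, and were called higher.

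MP tumors 1 to 3 were then compared with MP tumors 4 to 10, all of the same labelled genotype and differing in project number. Some markers of host cells differed with the sets as well. The endothelial markers summed to 12.4, 4.97 and 3.68 TPM in tumors 1, 2 and 3 and to 18.7 to 169.8 TPM in tumors 4 to 10, with 3 of 3 markers lower in each of tumors 1 to 3 than in every other tumor. The stromal markers summed to 18.3, 28.04 and 30.8 TPM against 50.9 to 2785 TPM, with 1 of 4 markers so separated, Col1a1. The immune marker sums overlapped, at 30.5 to 72.4 TPM against 46.7 to 217 TPM. Of the immune markers 1 of 6 was so separated, and of the theca and luteal markers 1 of 5. The part of these cells in the differences below was not tested. On the TPM scale 13 genes were lower in tumors 1 to 3 and 2 were higher, where 33.6% of the 15833 genes tested were lower and 1.42% higher, so the lower share of the 50 (26%) was near that of all genes. The lower genes were led by Plk1 (log2 fold change -2.51, SE 0.50, adjusted p = 0.00202), Ncapd2 (log2 fold change -2.49, SE 0.49, adjusted p = 0.00188), Espl1 (log2 fold change -2.10, SE 0.54, adjusted p = 0.00845) and Cdc25b (log2 fold change -2.06, SE 0.41, adjusted p = 0.00211). Mki67 and Cenpe were lower as well, with log2 fold changes of -1.95 and -1.68. The higher genes were Cenpk (log2 fold change 1.45, SE 0.50, adjusted p = 0.0365) and Mad2l1 (log2 fold change 1.09, SE 0.39, adjusted p = 0.0410). Without MP tumor 2, which had 55.1% of its TPM in 10 genes, 3 genes were lower and Espl1, Mki67 and Cenpe were not among them. Over all genes 2984 of 15719 were lower there. Without MP tumor 1, 3 or 5 none of the 50 was higher by limma, beside 95 of 15618, 37 of 15699 and 157 of 15216 genes. The direction of the group as a whole depended on the scale: its median was -0.71 on the TPM scale and 0.57 after median-of-ratios scaling, which called 18 genes higher and 2 lower (15.2% and 11.1% of all genes).

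Of the 13 genes that were low in tumors 1 to 3, 10 lay in the group of 25 genes with the longer coding sequences. The fold change between the tumor sets fell with the length of the longest coding sequence, with a Spearman rho of -0.539 across the 50 genes and -0.47 across 13161 genes with a coding length, given as a description since genes of one library are not independent. Against the ovaries, tumors 1 to 3 gave -0.519 across the 50 and -0.356 across 13312 genes, and all tumors gave -0.47 across the 50 and -0.216 across 14110 genes. Among the 25 genes with coding sequences of 237 to 1728 bases 2 were higher and 3 lower in tumors 1 to 3 than in the other tumors, with a median of -0.27. Among the 25 with 1809 to 9531 bases none was higher and 10 were lower, with a median of -1.103. Spc24 (603 bases) and Cks2 (237 bases) stood at 1.2997 and 0.98, whereas Mki67 (9531 bases) and Cenpf (8991 bases) stood at -1.95 and -1.18. Not all followed this order. Cks1b, also of 237 bases, stood at 0.19, and Ube2c (537 bases) at -0.94. Cdca8 (978 bases) and Cenpn (1011 bases) were called lower, at -1.41 and -1.18, and Plk1 and Cdc25b, of 1809 and 1728 bases, were as low as the longest genes. With the trend over coding length removed across all genes, 12 of the 50 were higher in tumors 1 to 3 and 0 lower by limma (9.66% and 9.39% of all genes). The removal also recentred all genes, whose median moved from -0.95 to 0.05, and median-of-ratios scaling, with no step for length, had already given 18 higher and 2 lower. The same removal left 47 of the 50 genes higher in MP tumors than in WT ovaries (13.8% of all genes), Mki67 and Ncapd2 among them, and Pttg1 lower. There the median of all genes moved from -0.58 to 0.06, and median-of-ratios scaling alone gave 41 higher. The part of coding length in these counts therefore cannot be told apart from that of the recentring. Project number and tumor set cannot be told apart here.

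**Figure D5:**
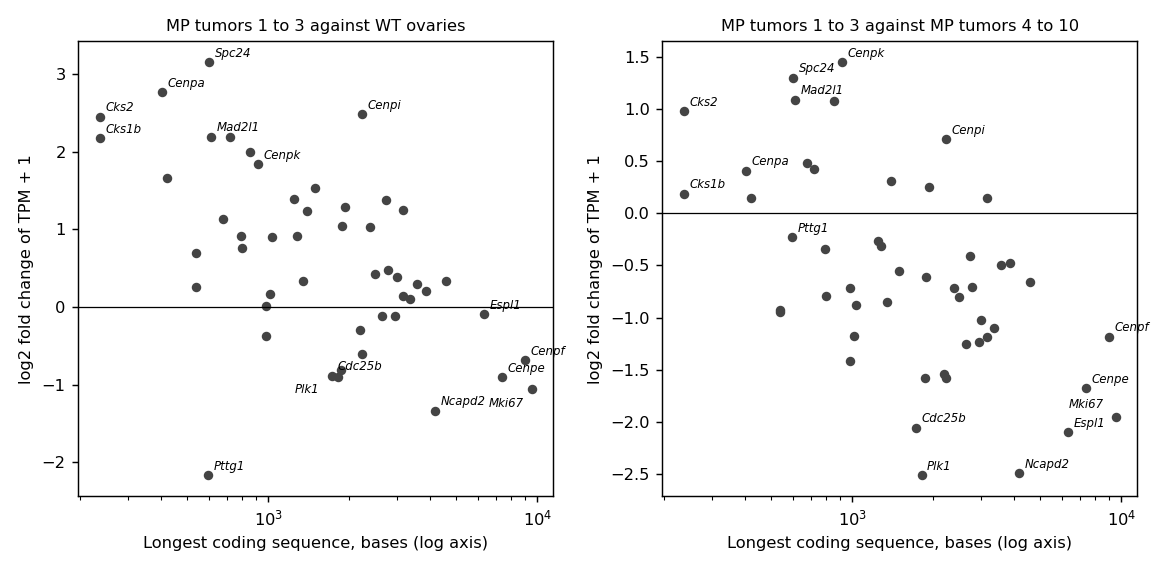
Log2 fold change of TPM + 1 for each of the 50 genes against the length of its longest coding sequence in bases (log axis), for MP tumors 1 to 3 over WT ovaries (left) and over MP tumors 4 to 10 (right). Values fall with length in both panels, with Spearman rho -0.519 and -0.539, and Pttg1 lies apart on the left.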

How the data were processed

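RNA-seq (polyA-selected TruSeq libraries, 76-base single-end reads) was analyzed for 3 WT ovaries and 10 MP tumors. Per the labels' processing notes the submitters used FastQC 0.11.5, Trimmomatic 0.36, STAR 2.5.3a and featureCounts 1.6.3 on mm10/GRCm38. A separate protocol text in the labels names a human build, HTSeq and RPKM, which the mouse gene table does not bear out. The authors' deposited file was a gene by library table in TPM, with coordinates and merged exon lengths, and TPM summed to 1000000 in each library. TPM multiplied by length gave whole reads for 100% of values (tolerance 0.001), from 3892690 to 64013840 per library, so that 1 read in a gene of 1 kb is worth 0.0513 to 0.790 TPM.

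Differences were tested with limma 3.58.1 (R 4.3.3, trend and robust) on log2(TPM + 1) for genes with at least 1 TPM in at least 3 libraries, with no covariate, Benjamini-Hochberg adjustment over all genes tested and a threshold of 0.05. On this scale changes of weakly expressed genes come out too small. The same test was run for MP tumors 1 to 3 against the ovaries, and against MP tumors 4 to 10. Coding lengths came from GENCODE M21, whose gene start and end equalled those of the table for 46 of the 50 genes. Of the 50 genes, 18 overlap a gene on the other strand, and whether strand was used in counting is not given in the sources used here. The model was first run on simulated reads with known changes. These did not hold the shift over all genes seen here, so that run does not vouch for the fit on these data.

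The 50 genes and the lists of other mitotic genes and cell type markers were chosen with earlier results of these data known. Genes were named with values if they were called, had the largest moderated statistic of their role group, were Mki67 or Top2a, or were among the 5 highest in WT ovary or the 5 with the largest SD between tumors. In addition, at most 3 other mitotic genes were named by the same statistic. Other genes named within a role group were placed by their values. Alternatives were another pseudocount and filter, median-of-ratios scaling, quantile normalization, removal of the trend with gene length, limma without trend, voom on the recovered reads, the project number as covariate, a replicate block and leaving out each library. Leaving out MP tumors 1 to 3, removal of the coding length trend, and voom for the comparison between tumors were chosen after seeing the data. WT and MP samples share the numbers 1 to 3, but the labels do not tie a number to a shared animal, litter or day, and same-numbered samples had correlations of deviations of -0.096, -0.021 and 0.001, so the numbers were not treated as pairs.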

Additional observations from a re-analysis of the deposited data

Results flagged for a closer look

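Each of the 50 genes and their mean level was examined for a single tumor standing apart from the other 9, by the gap to its nearest neighbor over the whole range, on the log2 scale. Of these 51 measures 2 passed Dixon's critical value, where chance gives about 1 in 20, or 2.55 of the 51. The number found was thus no more than chance gives. Bub3, a spindle checkpoint protein, was at 18.9 TPM in MP tumor 2 and at 51.7 to 85.8 TPM in the other 9 tumors (gap over range 0.661). MP tumor 2 is the library with 55.1% of its TPM in 10 genes, and it was the lowest tumor for 24 of the 50 genes. The part of this in the Bub3 value was not tested. Ncapg, a condensin I subunit, was at 142 TPM in MP tumor 10 and at 10.9 to 36.4 TPM in the other 9 (gap over range 0.540). No difference of effects between groups was tested for this purpose, and the ovaries, being 3, were not examined in this way.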

How the results depend on the processing

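With median-of-ratios scaling, quantile normalization, the gene length trend removed, voom and the coding length trend removed (the last added after seeing the data), the number of the 50 genes higher in MP tumors than in WT ovaries was 41, 40, 43, 38 and 47 in place of 15, and that of the 89 other mitotic genes 35, 43, 43, 33 and 52 in place of 13. Over all genes the shares higher were 7.39%, 11%, 11.2%, 10.9% and 13.8% in place of 2.51%. Within the first project number these settings gave 42, 44, 46, 29 and 48 higher in place of 16, and 0, 1, 1, 1 and 1 lower in place of 3, the last also 1 with no filter on low values. Over all genes they gave 4265, 4882, 4598 and 2175 of 15239 and 4173 of 13312 higher, in place of 1043 of 15239. Lower were 5631, 4701, 4313 and 8008 of 15239 and 3794 of 13312, in place of 9504. Between MP tumors 1 to 3 and 4 to 10 these settings gave 18, 8, 11, 6 and 12 higher in place of 2, and 2, 2, 2, 7 and 0 lower in place of 13. Over all genes they gave 2401, 1707, 1467 and 624 of 15833 and 1272 of 13161 higher, in place of 225 of 15833. Lower were 1764, 1434, 1333 and 4636 of 15833 and 1236 of 13161, in place of 5320. The median log2 fold change of the 50 against WT ovary was 1.67 with median-of-ratios scaling, 1.81 with quantile normalization, 1.81 with the length trend removed and 1.88 with the coding length trend removed, in place of 1.00. For the other mitotic genes these 4 settings gave 0.96, 1.11, 1.14 and 1.24 in place of 0.33. Within the first project number they gave 1.91, 2.06, 2.18 and 2.41, and voom 1.19, in place of 0.46. Between the tumor sets the median turned from -0.71 to 0.57, 0.20, 0.49 and 0.65 under the same 4 settings. With voom it stayed negative, at -0.29. The mean level of the 50 in tumors minus ovaries was 1.72, 1.71 and 1.78 under the first 3 settings, in place of 1.04, and the median ovary level was 16.1 in place of 23.7 after median-of-ratios scaling. With the coding length trend removed, rho with coding length was -0.0262 over all samples, 0.0344 within the first project number and 0.0785 between tumor sets, by the construction of that setting. Without MP tumors 1 to 3 (added after seeing the data) 24 of the 50 and 21 of the other genes were higher. With the project number as covariate, the replicate block or the first project number alone, 2, 2 and 3 of the 50 and 22, 22 and 28 of the other mitotic genes were lower, and the median of the other genes turned to -0.26. These 3 settings give the same fold changes, since all ovaries carry the first project number and the numbers 1 to 3. They therefore count as 1 result for direction, not 3. Each of these 3 settings also turned Plk1 to -0.91, Cenpe to -0.90, Espl1 to -0.10, Ncapd2 to -1.34 and Mki67 to -1.06. The replicate block called 16 of the 50 higher. The samples share only a number, so this block is no test of pairing. Apart from settings that alter the samples or scaling, where named, the cause was not tested.

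Leaving out 1 library at a time, the number of the 50 genes higher ran from 2 (without ovary 1 or 3; 6 without ovary 2) to 20 and the number lower from 0 (without ovary 3) to 1, with medians of 0.80 to 1.23 and rho of -0.507 to -0.416. The other mitotic genes ran from 0 higher (without ovary 3; 1 and 5 without ovaries 1 and 2) to 19, from 0 to 1 lower (1 without MP tumor 10), with medians of 0.18 to 0.44. Within the first project number the ranges were 9 (without ovary 3) to 22 higher and 1 to 6 lower (1 without ovary 1, ovary 2 or MP tumor 3, 6 without MP tumor 1, 5 without MP tumor 2), with medians of 0.16 to 0.73 and rho of -0.590 to -0.441. Between tumor sets they were 0 to 3 higher (0 without MP tumor 1, 3 or 5, 1 without 4, 6 or 10) and 3 to 17 lower (3 without MP tumor 2, 5 without 3, 8 without 5, 6 or 8, 7 without 10), with medians of -1.02 to -0.39 and rho of -0.644 to -0.405. The median SD between tumors was 0.69 to 0.84, the mean level difference 0.83 to 1.24 and the median ovary level 20.1 to 26.6 TPM. In all, 248 recomputed group values stayed on the same side, 83 moved and 9 reversed. Of the recomputed values of the 16 called genes 334 kept the call and 82 lost it. Of those of 8 other named genes 165 stayed without a call, 28 gained one and 15 reversed. The 15 reversals were of 5 genes, each in the 3 settings that share their fold changes. The shallowest tumor held 3892690 reads, and the fewest reads behind a value of the 50 genes was 16, so single low values carry wide counting error.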
